A study of Arabidopsis thaliana with 24 samples.

Results

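QQS (AT3G30720, Qua-Quine Starch) was described across rosettes and roots of Arabidopsis thaliana that differed in genotype and sulfur supply. It is 1 gene, represented by 1 feature among the 28583 of the array and the 16746 that carry exactly 1 gene, and it was found by its symbol in the platform annotation. The gene was chosen by its levels in these arrays, so its levels and differences are given below as a description, without a test. The plants were the accession Col-0 and the mutant rpt2-3a. RPT2 is one of the ATPases in the base of the proteasome's regulatory cap. All grew hydroponically in short days (8 h light, 16 h dark) for 5 weeks on complete medium, and then either remained on it (normal sulfur) or were moved to a sulfur-deficient solution for 5 days. Organ, genotype and supply give 8 groups of 3 arrays each, which the series' design calls biological replicates. How many plants went into an array, and the nature of the rpt2-3a allele, are not stated in the labels.

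QQS is an orphan gene, meaning that no related coding sequence is recognised outside its species. It encodes a very small protein and was first noticed because its transcript changed in a mutant lacking a starch synthase. Plants with less QQS transcript accumulate more leaf starch, and plants that overexpress it hold less starch and more protein. The protein binds NF-YC4, a subunit of the NF-Y transcription factor. In wild accessions its transcript level varies with the DNA methylation of its promoter region.

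Organ markers followed the labelled organ. The rosette markers RCA, PSAE1, LHCB4.1 and ATPC1 lay between 8.34 and 11.44 on the log2 scale over the 12 rosette arrays and between 1.77 and 5.46 over the 12 root arrays. The root hair expansin gene EXPA7 ran from 1.81 to 2.62 on rosette arrays, and from 7.31 to 7.89 on root arrays. The genes RPT2A and RPT2B have 0 features with exactly 1 gene, so the genotype labels could not be checked through them.

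In rosettes QQS was higher in rpt2-3a than in Col-0 at both sulfur supplies. At normal supply the Col-0 arrays read 3.9, 3.95 and 4.03 (log2 expression values). The rpt2-3a arrays read 4.81, 5.06 and 4.6, all above every Col-0 array. The group means were 3.96 ± 0.07 (SD, n = 3) and 4.82 ± 0.23, a log2 difference of 0.86 ± 0.21 (SE of the fit over the 12 rosette arrays) or 1.82-fold. Of all features, 7.98% were likewise higher in rpt2-3a without overlap between these groups of arrays. In whole organs, more transcript per cell and more of the cells that hold it cannot be told apart.

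At deficient supply the gap between genotypes was wider. The Col-0 rosettes read 3.53, 3.49 and 3.63, and the rpt2-3a rosettes 5.6, 4.79 and 5.8. Replicate 2 of rpt2-3a stood well below the other two but still above every Col-0 array. The means were 3.55 ± 0.07 (SD, n = 3) and 5.4 ± 0.53, a log2 difference of 1.85 ± 0.21 or 3.6-fold, and 9.71% of all features were higher in rpt2-3a without overlap. This difference was larger in size than that of 99.96% of the other features in the same comparison, as a description of a gene chosen with its values known. Because the rpt2-3a group under deficiency spread more than the others, the standard error from the compared groups alone was 0.31. Without replicate 2 of rpt2-3a the difference was 2.15, and without replicate 3 it was 1.65.

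**Figure D1:**
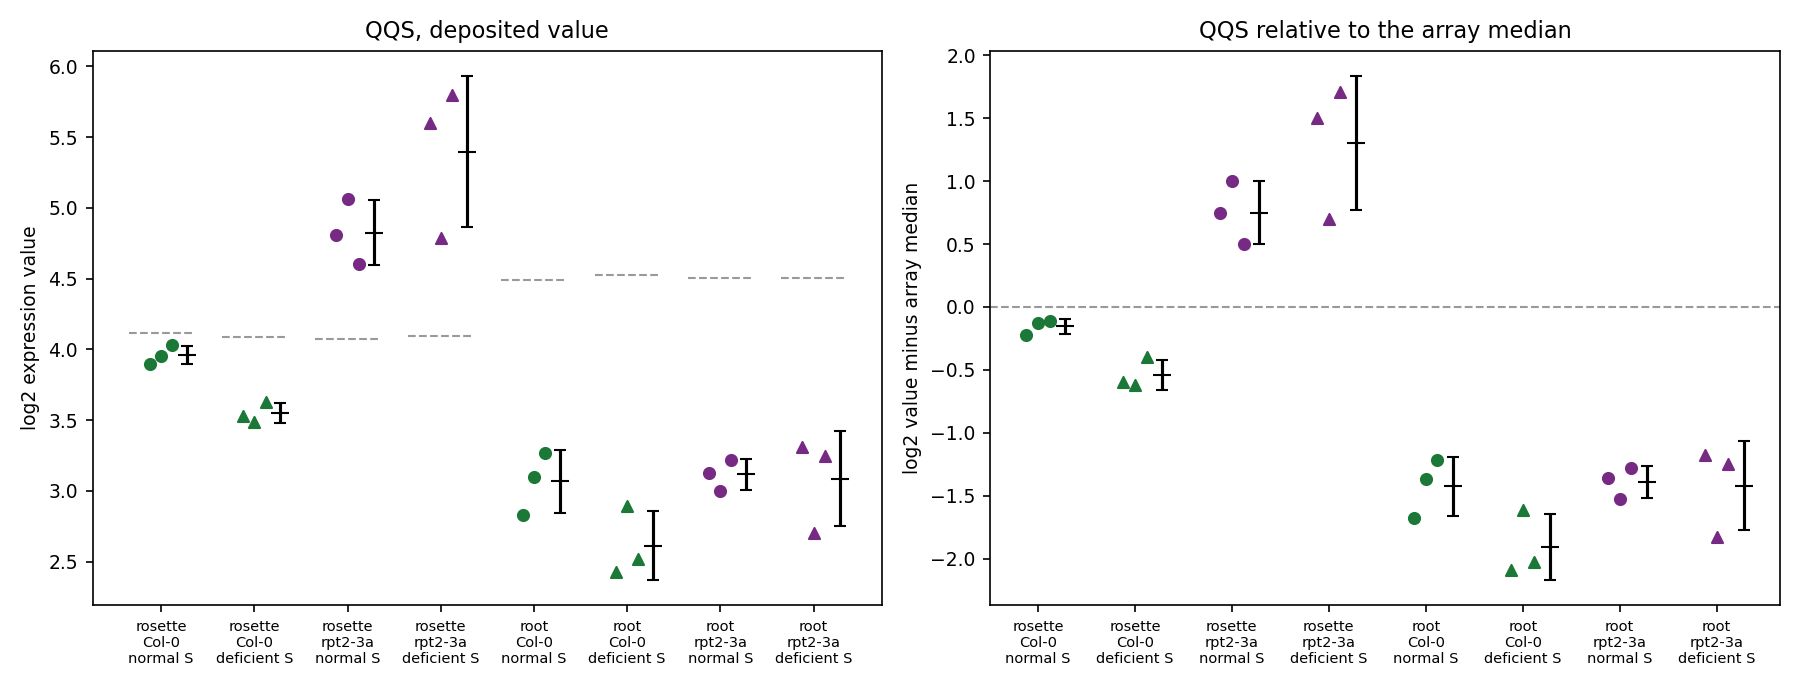
QQS in every array, as the deposited log2 value (left) and as the difference from the median of the same array (right), with 1 point per array, circles for normal and triangles for deficient sulfur, green for Col-0 and purple for rpt2-3a. Black marks are group means ± SD (n = 3) and dashed lines array medians. The rpt2-3a rosettes, at 4.6 to 5.8, are the only arrays above their medians.

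Sulfur deficiency went with opposite differences of QQS in the rosettes of the genotypes. In Col-0 all 3 deficient arrays lay below all 3 arrays at normal supply, with a log2 difference of -0.41 ± 0.21 (SE), and 7.18% of all features were lower without overlap in that comparison. The spread within these Col-0 groups was small, so the standard error from the compared groups alone was 0.06. In rpt2-3a the mean was 0.57 ± 0.21 higher under deficiency, but the groups overlapped, since replicate 2 under deficiency (4.79) lay below replicates 1 (4.81) and 2 (5.06) at normal supply. Its standard error from the compared groups alone was 0.34. Without replicate 2 under deficiency the rpt2-3a difference was 0.88, and without replicate 3 it was 0.37. The difference of the sulfur responses, rpt2-3a minus Col-0, was 0.98 ± 0.29 and ranged from 0.78 to 1.29 when single rosette arrays were left out. The sulfur and the genotype comparisons of an organ share arrays and are not separate evidence.

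In roots QQS was low in every group. At normal supply the Col-0 arrays read 2.83, 3.1 and 3.27 and the rpt2-3a arrays 3.13, 3 and 3.22. These ranges overlap almost wholly, and the genotypes differed by 0.05 ± 0.17 (log2, SE). Under deficiency the Col-0 roots read 2.43, 2.89 and 2.52 and the rpt2-3a roots 3.31, 2.7 and 3.25. The rpt2-3a mean was higher by 0.47 ± 0.17, with overlap, because replicate 2 of rpt2-3a (2.7) lay below replicate 2 of Col-0 (2.89). Without that rpt2-3a array the difference was 0.67. For the 0.47 the standard error from the compared groups alone was 0.24.

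The sulfur response of QQS in Col-0 roots was -0.45 ± 0.17 (log2, SE), close in size to the -0.41 of Col-0 rosettes, although in roots 1 deficient array (2.89) exceeded 1 at normal supply (2.83). In rpt2-3a roots it was -0.03 ± 0.17, and it changed sign to 0.16 without replicate 2 under deficiency. The difference of the root responses between genotypes was 0.42 ± 0.25. In both organs the widest gap between genotypes was thus found under deficiency, at 1.85 in rosettes and 0.47 in roots. Replicate 2 was the lowest rpt2-3a array under deficiency in either organ. Whether rosettes and roots with the same number came from the same plants is not stated.

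**Figure D2:**
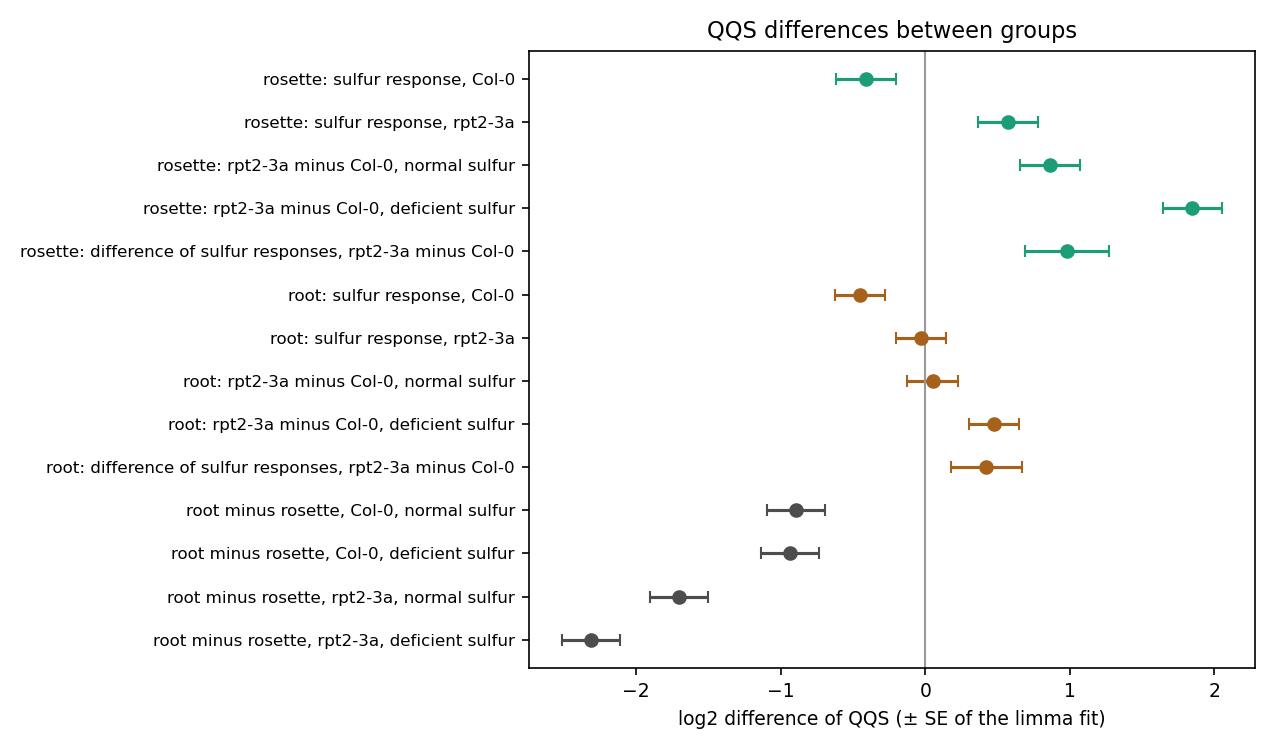
Log2 differences of QQS between groups (points) with the SE of the limma fit (bars), for rosettes (green), roots (brown) and root minus rosette (grey). Genotype differences in rosettes, at 0.86 and 1.85, lie to the right of 0, and all 4 organ differences lie to the left.

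The 8 group means spanned 2.78 on the log2 scale, or 6.88-fold, from 2.61 ± 0.24 (SD, n = 3) in deficient Col-0 roots to 5.4 ± 0.53 in deficient rpt2-3a rosettes. In descending order, the rpt2-3a rosettes under deficiency were followed by rpt2-3a rosettes at normal supply (overlapping), then Col-0 rosettes at normal and at deficient supply. Each of the latter was separated from the group above it, and the lowest Col-0 rosette array (3.49) was above the highest rpt2-3a root array at normal supply (3.22). The 4 root groups closed the order, rpt2-3a at normal (3.12 ± 0.11) and deficient supply (3.09 ± 0.34) before Col-0 at normal (3.07 ± 0.22) and deficient supply. Each neighbouring pair among them overlapped, and the first 3 means lay within 0.05 of each other. All 12 root arrays were below all 12 rosette arrays.

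Root minus rosette, QQS differed by -0.89 ± 0.2 (log2, SE) in Col-0 at normal supply and by -0.94 ± 0.2 under deficiency. In rpt2-3a these differences were -1.71 ± 0.2 and -2.31 ± 0.2, or 3.26-fold and 4.96-fold lower in roots. From the compared groups alone the standard error was 0.36 for the -2.31 and 0.13 to 0.15 for the other organ differences. The groups did not overlap in any of the 4 comparisons, which held in the lower direction for 21.3%, 20.8%, 20.7% and 22.4% of all features. Array medians were themselves 0.38 to 0.43 higher in roots than in rosettes. Relative to them the root minus rosette differences were -1.27 and -1.37 in Col-0 and -2.14 and -2.72 in rpt2-3a.

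Set against the array medians, QQS stood below them in Col-0 and above them in rpt2-3a rosettes. In Col-0 rosettes it lay 0.15 ± 0.06 (SD, n = 3) below the median at normal supply and 0.54 ± 0.12 below it under deficiency, above 47.7% to 48.8% and 42.6% to 45.3% of features. In rpt2-3a rosettes it lay above the median by 0.75 ± 0.25 and 1.3 ± 0.53, above 55.7% to 62.4% and 58.6% to 71.9% of features. In roots it was 1.39 to 1.91 below the median on average, above no more than 35.2% of features in any array. The order of the 8 groups was the same on this scale. Detection calls were not used here, and whether the root signal exceeds background was not tested.

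The spread of QQS between replicates differed by group as well. In deficient rpt2-3a rosettes its SD of 0.53 was larger than that of 99.5% of the other features in the same arrays. In deficient rpt2-3a roots 93.2% of features had a smaller SD. Both SDs rest mostly on replicate 2, at 4.79 beside 5.6 and 5.8 in rosettes and 2.7 beside 3.31 and 3.25 in roots. An SD from 3 arrays is imprecise, and differences in spread were not tested. In Col-0 rosettes the SDs of 0.07 were larger than those of only 18.6% and 16.5% of features, at normal and deficient supply.

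Of the starch genes that could be measured, none passed the test in any comparison. Of 21 listed genes of starch synthesis 7 had a feature with exactly 1 gene, and of 27 genes of starch breakdown 5 did. Listed genes with such a feature are called measured here. Features annotated with several genes or none were not used for the lists. These 12 genes were tested in limma fits over all features, with Benjamini-Hochberg adjustment. At an adjusted p under 0.05, 0 of them passed in any of the 10 comparisons within organs. Of the 120 values 5 had an unadjusted p under 0.05. That unadjusted level was reached by 1558 to 4095 of the 28583 features per comparison, so 5 of 120 is not above the background. Over all features 0.129% and 1.55% passed for the rosette sulfur responses of Col-0 and rpt2-3a, and 2.01% and 0.322% for the rosette genotype differences at normal and deficient supply. In roots the corresponding shares were 0.875%, 0.143%, 0.577% and 0.77%. For the difference of sulfur responses they were 0% in rosettes and 0.0105% in roots, so 0 of 12 is near the background throughout. In the comparison of deficient rosettes, where QQS differed by 1.85 and 0.322% of features passed, the 12 genes had a median log2 difference of -0.05 and a range from -0.63 to 0.09, beside a median of 0.02 over all features. At normal supply, where 2.01% of features passed, their median was -0.03 and their range -0.37 to 0.15.

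Single starch genes are given for scale. The lowest value in deficient rosettes was that of AMY1, which encodes an alpha-amylase, an enzyme that cuts starch chains internally. It averaged 4.42 ± 0.41 (SD, n = 3) in Col-0 and 3.78 ± 0.14 in rpt2-3a, a log2 difference of -0.63 ± 0.23 SE (limma adjusted p = 0.35). PTST1, whose product carries granule-bound starch synthase to the starch granule, averaged 6.09 ± 0.04 in Col-0 and 5.73 ± 0.18 in rpt2-3a rosettes at normal supply (-0.37 ± 0.14 SE, limma adjusted p = 0.23). Under deficiency PTST1 stood at 6.13 ± 0.06 in rpt2-3a rosettes (sulfur response 0.41 ± 0.14 SE, limma adjusted p = 0.2). APL4, a large subunit of ADP-glucose pyrophosphorylase, which makes the glucosyl donor for starch, had a sulfur response of -0.49 ± 0.2 SE in rpt2-3a roots (limma adjusted p = 0.5). PWD, a dikinase that phosphorylates starch before its breakdown, stood at -0.28 ± 0.13 SE in the same comparison (limma adjusted p = 0.57). The other members, namely APL3, SS5, SBE2.2, PTST2, PTST3, DPE1, ESV1 and LESV, had an unadjusted p above 0.05 throughout.

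**Figure D3:**
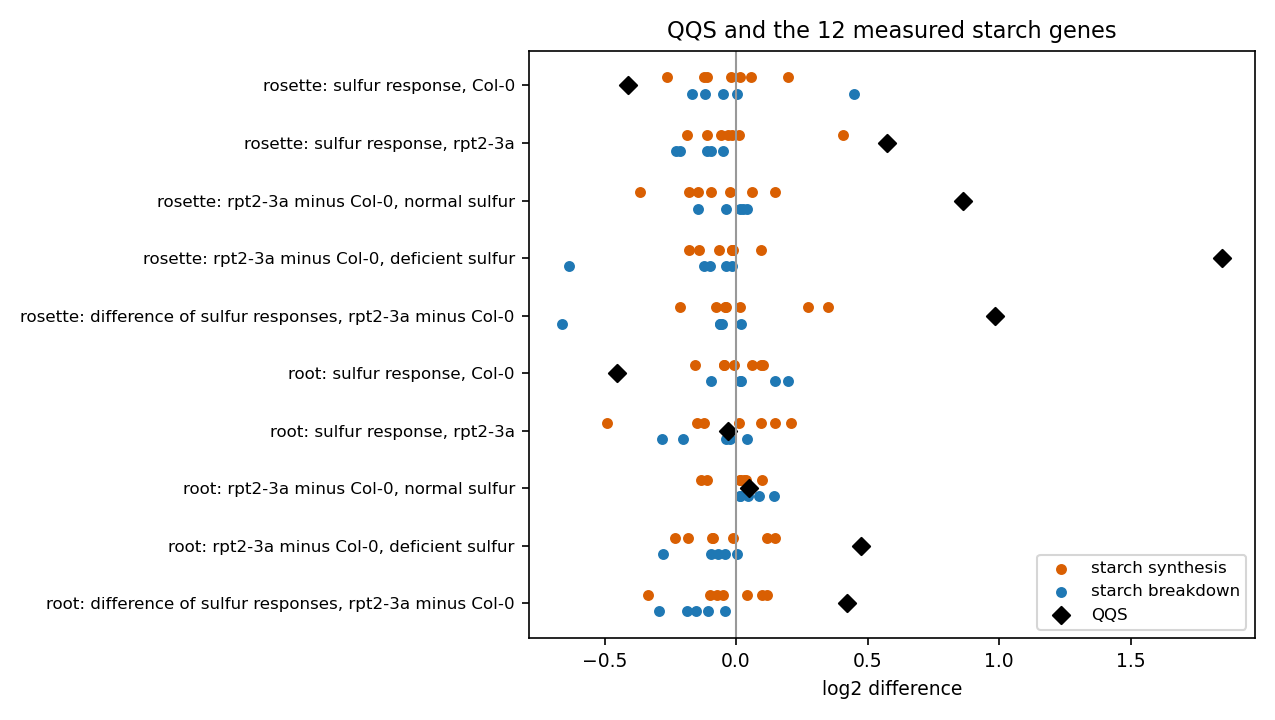
Log2 differences of the 7 measured genes of starch synthesis (orange), the 5 of starch breakdown (blue) and QQS (black diamonds) in the 10 comparisons within organs. Starch genes lie between -0.66 and 0.45 throughout, while QQS reaches 1.85 between deficient rosettes.

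Of 16 listed sulfur deficiency markers SDI2 and the beta-glucosidase gene BGLU28 were measured. Both rose in Col-0 roots, where 0.56% of all features passed as higher. BGLU28 went from 2.71 ± 0.21 (SD, n = 3) to 4.82 ± 0.7 (log2 change 2.11 ± 0.28 SE, limma adjusted p = 0.0024), and SDI2 rose by 1.13 ± 0.17 SE (limma adjusted p = 0.0042). In the same roots QQS stood at -0.45. In deficient roots both markers were lower in rpt2-3a than in Col-0, by -1.66 ± 0.28 SE for BGLU28 (limma adjusted p = 0.018) and -0.9 ± 0.17 SE for SDI2 (limma adjusted p = 0.025), where 0.276% of features passed as lower and QQS stood at 0.47. Those calls were lost without single arrays. For BGLU28 they were replicates 1 and 2 of either genotype, and for SDI2 these and replicate 3 of rpt2-3a, with adjusted p up to 0.082 and 0.12. In rosettes neither marker passed for the sulfur response, and they stood on opposite sides of 0 in Col-0. BGLU28 was at 1.43 ± 0.28 SE in Col-0 (limma adjusted p = 0.078) and 0.13 ± 0.28 SE in rpt2-3a (limma adjusted p = 0.9). SDI2 was at -0.49 ± 0.19 SE in Col-0 (limma adjusted p = 0.5) and -0.72 ± 0.19 SE in rpt2-3a (limma adjusted p = 0.095), beside -0.41 and 0.57 for QQS. In deficient rosettes, where QQS had its largest genotype difference, BGLU28 stood at -1.37 ± 0.28 SE (limma adjusted p = 0.067) and SDI2 at -0.75 ± 0.19 SE (limma adjusted p = 0.14).

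Of other genes tied to QQS few had a feature with exactly 1 gene. None of 6 listed NF-YC genes, NF-YC4 among them, had a feature with exactly 1 gene. Of 20 genes for DNA methylation and its removal only DME, a DNA glycosylase that removes methylated cytosine, was measured. DME averaged 6.42 ± 0.09 (SD, n = 3) in Col-0 and 6.67 ± 0.17 in rpt2-3a rosettes at normal supply (0.25 ± 0.11 SE, limma adjusted p = 0.29). In deficient rosettes it differed by 0.03 ± 0.11 SE (limma adjusted p = 0.96), and it passed in 0 of 10 comparisons by limma, with 1 unadjusted p under 0.05.

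The genes around QQS were examined next. In the RefSeq order of TAIR10.1, 15 of the 20 nearest genes (10 on each side) are pseudogenes, 3 are protein-coding and 2 are long non-coding RNAs, and only AT3G30730 has a feature with exactly 1 gene. That gene stood between 1.63 and 1.97 in all 8 groups. The 5 nearest measured genes on each side lie up to 65 genes away. Their group means ran from 1.63 to 3.02, so that every one of them was below the array medians. In limma fits 0 of these 10 genes passed in any of the 10 comparisons (smallest adjusted p = 0.1), and 8 of the 100 values had an unadjusted p under 0.05. Over all features 0% to 2.01% passed per comparison, so 0 of 10 is near the background. An unadjusted p under 0.05 was held by 1558 to 4095 of the 28583 features per comparison. Between deficient rosettes the 10 neighbouring genes differed by -0.3 to 0.19, where QQS differed by 1.85. At normal supply the highest value was that of bZIP42, a basic leucine zipper factor, at 0.6 ± 0.22 SE (limma adjusted p = 0.21). Its sulfur response in rpt2-3a rosettes was -0.66 ± 0.22 SE (limma adjusted p = 0.18), on the other side of 0 from QQS. AT3G30840, which had the smallest adjusted p, stood at -0.54 ± 0.15 SE in that comparison (limma adjusted p = 0.1).

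Genes whose pattern was most like that of QQS were ranked by Pearson's r over the 12 arrays of an organ, among the other 16745 features with exactly 1 gene. These arrays share groups and, in rosettes, a split between genotypes, so r is a description without a p. The names depend on the measure, since by Spearman's rho 0 of the 5 named for rosettes, 1 of the 5 for roots and 1 of the 5 for both organs were among the highest 5. In rosettes the highest were AT2G18876 (r = 0.95), AT1G48840 (r = 0.93), AT5G62280 (r = 0.91), AT1G56220 (r = 0.91), of the dormancy and auxin-associated family, and AT1G66810 (r = 0.91), a CCCH zinc finger gene. AT2G18876 stood at 5.06 and 4.95 in Col-0 rosettes at normal and deficient supply and at 5.46 and 5.74 in rpt2-3a, the same order of the 4 groups as QQS over a narrower range. Within the 6 rosette arrays of a genotype its r with QQS was 0.45 in Col-0 and 0.81 in rpt2-3a. AT1G66810 differed more between genotypes, at 3.36 and 3.19 in Col-0 and 5.73 and 5.56 in rpt2-3a. Its mean was not higher under deficiency in rpt2-3a, whereas the QQS mean was, with overlapping groups. Within a genotype, r in rosettes ran over these 5 genes from -0.24 to 0.54 in Col-0 and from 0.38 to 0.88 in rpt2-3a. Over the 12 root arrays the r of these 5 genes with QQS ran from -0.48 to 0.38.

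In roots, where QQS was dim, the highest were AT3G05430 (r = 0.89), PC1 (r = 0.87), AT3G45245 (r = 0.85), AT5G60000 (r = 0.85) and AT3G25240 (r = 0.85). Their root group means lay between 1.95 and 3.88, all below the array medians, and their r with QQS in rosettes ran from -0.04 to 0.59. They were picked as the highest of 16745 values over 12 root arrays, so a high r was built into the choice. Whether they share a pattern with QQS was not tested. Ranked by the smaller r of both organs, the highest were AT4G00893 (0.8), AT3G42155 (0.79), AT5G55855 (0.75), AT2G21640 (0.72), whose transcript is known to increase under oxidative stress, and AT3G56210 (0.71). Within a genotype, their r in rosettes ran from -0.89 to 0.61 in Col-0 and from -0.29 to 0.8 in rpt2-3a. In roots it ran from 0.81 to 0.94 in Col-0 and from 0.13 to 0.72 in rpt2-3a. AT3G56210 had the widest range of these genes. In rosettes it stood at 4.76 and 4.62 in Col-0 and at 5.82 and 6.16 in rpt2-3a, at normal and deficient supply. In roots it stood at 4.30 ± 1.45 and 3.17 ± 0.52 (SD, n = 3) in Col-0 and at 5.52 ± 0.81 and 5.89 ± 0.71 in rpt2-3a, so that at normal supply the gap between the means was smaller than the SD in Col-0.

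**Figure D4:**
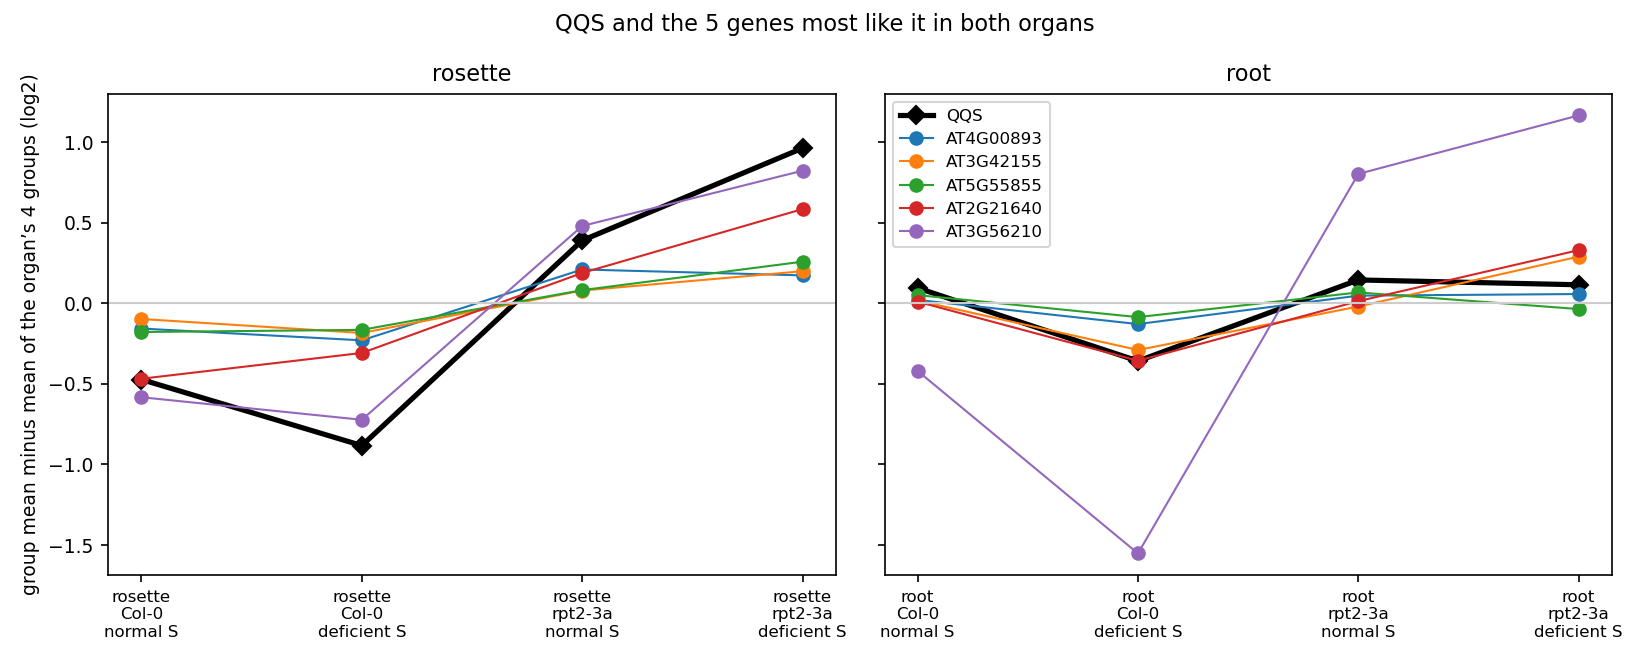
Group means of QQS (black) and of the 5 genes with the highest smaller r of both organs (colours), each minus its mean over the 4 groups of the organ, on the log2 scale, in rosettes (left) and roots (right). In rosettes all 6 genes are higher in both rpt2-3a groups than in both Col-0 groups, and in roots all 6 have their lowest mean in deficient Col-0. The 5 genes were chosen by their r with QQS over these same arrays, so a likeness to it was built into the choice.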

How the data were processed

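The deposited value table holds 1 log2 expression value per feature for each of 24 Affymetrix arrays, between 0.93 and 12.77. Per the submitters' processing notes, the authors used Transcriptome Analysis Console. Neither version nor normalization nor log base is given in the sources used here. Scale and centring are therefore unknown, and folds assume base 2. Array medians were 4.03 to 4.14 in rosettes and 4.47 to 4.55 in roots, and arrays of a group correlated at 0.989 to 0.994. An array gives no count depth, and 3 arrays per group limit the precision. No batch is given in the labels.

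Features were named through the platform annotation (16746 with exactly 1 gene, 758 with several, 11079 with none) and RefSeq gene identifiers. Differences and standard errors came from limma 3.58.1 in R 4.3.3, with 1 mean per group, in 1 fit per organ (8 residual degrees of freedom) and in 1 over all arrays for organ differences (16). Listed genes were tested in the organ fits, two-sided, at a Benjamini-Hochberg adjusted p under 0.05 over 28583 features. The fit was tested on simulated data. Members, lists and comparisons were chosen with earlier results of these data known. Named genes are QQS, list members by call and smallest p, the 5 most similar genes per organ and over both, and the 5 nearest measured genes on each side. Replicate numbers were not used as a block. Alternatives were median centring, quantile normalization, a replicate block, a filter on dim features, eBayes with trend and robust, and leaving out single arrays.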

Additional observations from a re-analysis of the deposited data

How the results depend on the processing

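Of 134 values of the 14 QQS differences under other settings, 130 kept their sign. The 134 include the 10 values with the replicate block, which the balanced design fixes, and values without single arrays, which share most of their arrays. The 4 exceptions were in roots, where the sulfur response of rpt2-3a ranged from -0.14 to 0.16 and the genotype difference at normal supply from -0.07 to 0.15 without single arrays. The ranges without single arrays in rosettes were -0.45 to -0.38 and 0.37 to 0.88 for the sulfur responses of Col-0 and rpt2-3a, 0.75 to 0.98 and 1.65 to 2.15 for the genotype differences at normal and deficient supply, and 0.78 to 1.29 for the difference of responses. In roots those of the Col-0 sulfur response were -0.59 to -0.35, of the genotype difference under deficiency 0.36 to 0.67 and of the difference of responses 0.31 to 0.62. Root minus rosette differences ran from -0.995 to -0.78 and -1.08 to -0.85 in Col-0 and from -1.82 to -1.59 and -2.61 to -2.11 in rpt2-3a. They became -1.27, -1.37, -2.14 and -2.72 after median centring, since the array medians differ between organs. After quantile normalization they were -1.23, -1.23, -2.07 and -2.63 (Col-0 normal and deficient, then rpt2-3a normal and deficient). The replicate block left all 10 QQS differences within organs at the same value, since the design is balanced. Deviations of same-numbered arrays of different groups from their group means correlated at -0.10 to 0.24 in rosettes and -0.12 to 0.15 in roots. Of the arrays, 4 of 12 in rosettes and 6 of 12 in roots correlated best with their own number. Whether same-numbered arrays share more than a number is not stated in the labels and cannot be decided from these values. The standard error from the compared groups alone was chosen after seeing the data.

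Counts over all features moved more. The replicate block gave 70 features for the Col-0 rosette response in place of 37 and 1 in place of 3 for the difference of root responses. It also added 1 list member, BGLU28, higher in Col-0 rosettes under deficiency, and moved no other count by more than 1.5 times. The filter on dim features gave 96, 717 and 172 features (in place of 37, 444 and 92) for both rosette sulfur responses and the genotype difference under deficiency, and 1 in place of 0 for the difference of responses. In roots it gave 133, 251, 343 and 12 in place of 41, 165, 220 and 3, for the rpt2-3a response, both genotype differences and the difference of responses. It removed BGLU28 from the fits of both organs, leaving 1 list member called in roots where 2 were, and removed QQS from the root fits. In rpt2-3a rosettes it added 1 list member (SDI2, lower under deficiency). With eBayes with trend and robust the counts were 130, 724, 880, 241 and 19 in rosettes (sulfur responses of Col-0 and rpt2-3a, genotype differences at normal and deficient supply, difference of responses), in place of 37, 444, 574, 92 and 0, and 383, 154, 283, 388 and 12 in the same order in roots, in place of 250, 41, 165, 220 and 3. It added 1 list member each in both rosette sulfur responses (BGLU28 higher in Col-0, SDI2 lower in rpt2-3a) and in deficient rosettes (BGLU28, lower in rpt2-3a), as did quantile normalization in the last. No starch gene, and not DME, passed under any setting run, but features that the filter on dim features dropped were not tested under it. In that order, without single arrays the counts ran from 5 to 39, 179 to 611, 102 to 654 and 32 to 56 in rosettes, with 0 for the difference of responses, and from 139 to 175, 10 to 31, 58 to 159, 43 to 155 and 0 to 5 in roots, and list members called in deficient roots from 0 to 2. Ranked by Spearman's rho, 0 of the 5 genes most like QQS in rosettes, 1 of 5 in roots and 1 of 5 over both organs were the same.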
